A study of Mus musculus with 10 samples.

Results

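The comparison of mouse 8-cell embryos with a knockdown of Klf5 against control embryos is described here, with 2 libraries in each group. A gene entered it when its abundance reached at least 1 linear unit in at least 2 of these 4 libraries, which held for 10029 of the 24421 genes in the tables. The series measured total RNA in 10 libraries, in 5 groups of 2, of embryos that all had the BDF1 genotype. The knockdown groups are named siKlf5 and siTfap2c, the control carries the treatment label Control, and the other libraries come from embryos with Tfap2c motifs knocked out (Arpc1bE_CdxE1_KO and CdxE2_KO). The labels give neither the siRNA sequences nor the injection that the control received, and not whether the 2 libraries of a group are separate embryo pools. The p-values therefore measure the spread between libraries of a group, pooled over all 5 groups, which may be technical.

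Klf5 is a transcription factor of the Krüppel-like family, whose zinc fingers bind GC-rich and CACCC-type DNA elements. In the preimplantation mouse embryo it is known for its part in the first lineage choices, in which outer cells become trophectoderm, the epithelium that later forms the placenta, and inner cells become the inner cell mass. The 8-cell stage is the stage of compaction, when blastomeres flatten on each other, gain an apical pole and build the actin and junction network of the first epithelium.

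Klf5 (chromosome 14, 99298691 to 99315036, mm10) checks the labels. It stood at 7.20 and 7.13 log2 units in the control libraries and at 4.37 and 4.17 in the knockdown libraries, where a log2 unit is log2(abundance + 1). The groups did not overlap, and the linear level in the knockdown was 12.8% of control (log2 fold change -2.90, SE 0.10, adjusted p = 8.9e-07, limma). Both knockdown libraries thus kept a measurable amount of Klf5 RNA. In bulk embryos, fewer cells with a transcript and less of it per cell cannot be told apart.

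The control and knockdown values come from separately deposited tables, so levels are set across tables that may have been normalized separately. Linear abundances added up to 389715.5 and 390386.2 units in control and to 393933.8 and 395400.7 in the Klf5 knockdown. The median of the tested genes was 3.17 and 3.18 in control against 3.12 in both knockdown libraries. Read counts were not analysed here and depth is unknown. In each of the 10 libraries 26.0% to 34.5% of values were exactly 0, which can be a failed estimate, since Gapdh, used by every cell, lay between 0 and 0.81 log2 units. The share of zeros was 26.0% and 27.4% in control and 31.2% and 31.7% in the Klf5 knockdown. Whether this difference bears on the calls was not tested. Markers of other cells that could accompany embryos were low: 2 of 16 cumulus and granulosa genes were tested and 0 called, with a summed linear level from 2.26 to 4.07 units over the 4 libraries. Of 14 spermatid genes 0 were tested, and their sum ran from 1.39 to 2.79 units. In the list of fibroblast and blood markers 2 of 19 were tested and 1, Pecam1, which inner cell mass cells also express, was called lower.

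By limma 928 genes (9.25% of those tested) changed at an adjusted p under 0.05. Of these 641 were lower in the knockdown (6.39%) and 287 higher (2.86%). Both shares are the background for the gene lists below. The falls were also larger, with a median log2 fold change of -0.65 among the lower genes and 0.50 among the higher ones. A change of at least 2-fold was reached by 116 called genes (1.16%), 99 of them lower (0.987%) and 17 higher (0.17%). The 4 libraries separated by group for 3083 genes on the lower side (30.7%) and for 2598 on the higher side (25.9%). Each library mattered to the number of calls, which was 256 without control replicate 1, 292 without control replicate 2, 371 without knockdown replicate 1 and 249 without knockdown replicate 2. The genes called in all of these fits as well numbered 175 (1.74%), 150 lower (1.5%) and 25 higher (0.249%), and they are called stable below. Centring the libraries on their medians, which differed by -0.06 between the groups, moved the split to 471 lower and 449 higher, and quantile normalization to 548 lower and 364 higher.

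**Figure D1:**
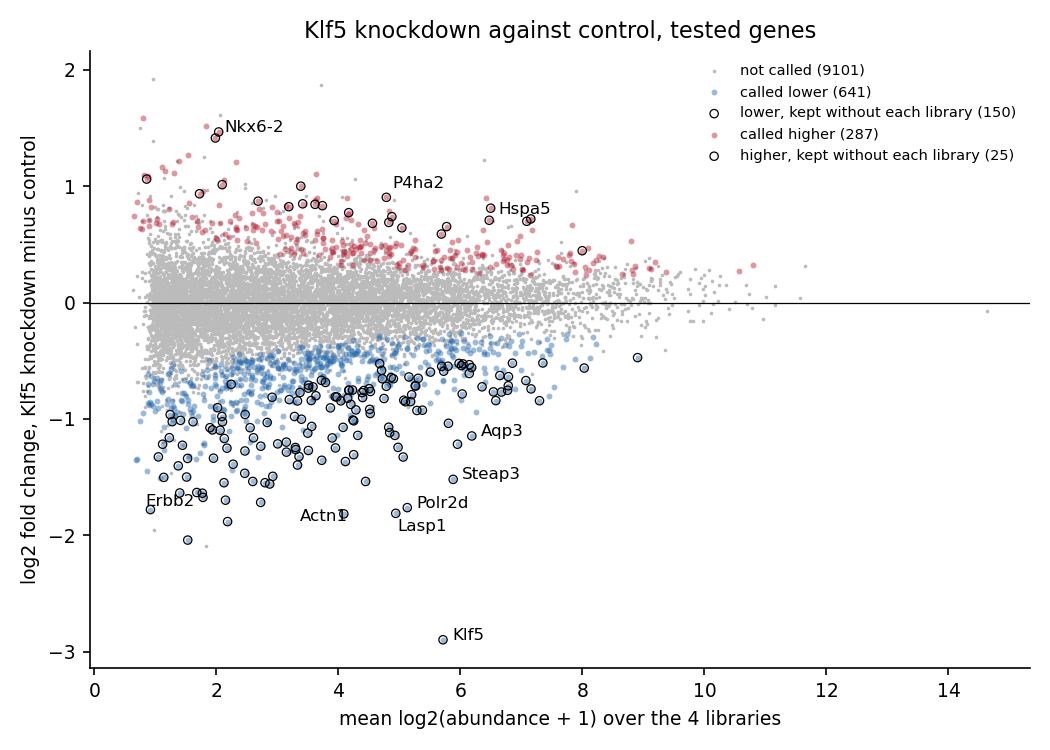
Each point is a tested gene, with its mean log2(abundance + 1) over the 4 libraries on the horizontal axis and its log2 fold change (Klf5 knockdown minus control) on the vertical axis. Colours mark the 641 genes called lower and the 287 called higher, and black rings the 150 and 25 that kept the call without each library. The lower side reaches further than the higher side, and Klf5 lies lowest.

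Genes with a mean under 100 linear units were more often called lower than higher, and those above it were not. Among 3931 genes with a mean under 5 linear units 4.55% were called lower and 1.37% higher. Between 10 and 30 units these shares were 8.16% and 3.52%, and between 100 and 300 units they were close, at 6.72% and 7.41%. Of the 207 genes at 300 units or more 0.966% were lower and 6.76% higher, that is, 2 genes lower and 14 higher. These shares were not examined with libraries centred on their medians.

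Actin-binding genes held several of the largest stable falls among genes that reached a group mean of 10 linear units. Actn1 (chromosome 12, 80167547 to 80260371), which encodes alpha-actinin-1, a crosslinker of actin filaments, stood at 5.01 and 4.99 in control and at 3.15 and 3.22 in the knockdown, 26.1% of the control level on the linear scale. Lasp1 (chromosome 11, 97799000 to 97838764), an actin-binding adaptor with a LIM and an SH3 domain, went from 5.94 and 5.75 to 4.28 and 3.79. Tagln2 (chromosome 1, 172500047 to 172507380), a transgelin that binds actin, fell from 3.93 and 3.42 to 2.14 and 2.22. For all 3 genes the groups were apart by more than the distance between replicates, but they were chosen for large falls and separated groups. Myo1c, an unconventional myosin that links membranes to actin, was at 4.03 in both control libraries and at 2.62 and 2.64 in the knockdown (log2 fold change -1.40, SE 0.12, adjusted p = 0.00047). Ahnak, a very large scaffold protein under the plasma membrane, fell by 1.35 on the log2 scale (adjusted p = 0.0021), and Tnks1bp1, a protein that binds tankyrase, by 1.31 (adjusted p = 0.00055).

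The promoters of several of these genes are printed because a KLF-type element, the letters CCNCNCCC on either strand, was searched for in them. They are the 300 bases from 250 before to 50 after the annotated start, from RefSeq on GRCm38.p6, written 5′ to 3′ along the gene, with every match in capitals. Overlapping matches run together. P4ha2 is shown beside the 4 genes that fell because it had the largest rise among the genes named by size.

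Actn1 (chr12:80260314-80260613, minus strand): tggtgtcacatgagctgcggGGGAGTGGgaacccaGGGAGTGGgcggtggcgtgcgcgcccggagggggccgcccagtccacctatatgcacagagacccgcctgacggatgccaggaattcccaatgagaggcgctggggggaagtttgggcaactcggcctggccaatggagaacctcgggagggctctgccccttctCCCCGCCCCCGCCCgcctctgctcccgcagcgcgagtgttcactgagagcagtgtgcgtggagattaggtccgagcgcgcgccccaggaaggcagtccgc
Lasp1 (chr11:97799315-97799614, plus strand): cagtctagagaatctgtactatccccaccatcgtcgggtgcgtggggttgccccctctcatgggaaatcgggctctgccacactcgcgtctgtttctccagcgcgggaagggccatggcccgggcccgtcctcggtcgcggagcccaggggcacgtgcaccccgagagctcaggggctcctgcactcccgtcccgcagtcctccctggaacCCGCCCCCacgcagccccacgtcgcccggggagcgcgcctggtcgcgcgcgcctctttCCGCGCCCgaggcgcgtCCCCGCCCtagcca
Anpep (chr7:79848161-79848460, minus strand): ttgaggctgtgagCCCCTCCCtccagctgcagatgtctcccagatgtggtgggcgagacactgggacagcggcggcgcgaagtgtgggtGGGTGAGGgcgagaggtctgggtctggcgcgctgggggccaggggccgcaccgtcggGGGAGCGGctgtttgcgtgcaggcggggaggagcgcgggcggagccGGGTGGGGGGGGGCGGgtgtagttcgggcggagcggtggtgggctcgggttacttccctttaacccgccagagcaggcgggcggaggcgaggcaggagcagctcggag
Tagln2 (chr1:172499996-172500295, plus strand): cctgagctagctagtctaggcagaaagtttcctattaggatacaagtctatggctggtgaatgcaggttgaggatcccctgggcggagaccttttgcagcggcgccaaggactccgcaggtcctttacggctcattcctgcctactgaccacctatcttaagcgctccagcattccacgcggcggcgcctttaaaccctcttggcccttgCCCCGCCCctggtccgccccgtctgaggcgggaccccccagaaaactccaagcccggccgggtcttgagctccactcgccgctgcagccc
P4ha2 (chr11:54100674-54100973, plus strand): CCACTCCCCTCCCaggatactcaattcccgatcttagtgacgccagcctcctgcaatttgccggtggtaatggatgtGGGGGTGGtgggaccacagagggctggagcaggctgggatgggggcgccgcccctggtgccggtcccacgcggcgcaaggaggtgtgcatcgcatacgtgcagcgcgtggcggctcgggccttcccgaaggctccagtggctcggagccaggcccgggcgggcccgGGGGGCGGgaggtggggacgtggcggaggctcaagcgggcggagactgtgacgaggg

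The promoter of Actn1 held 5 matches, that of Lasp1 3, that of Anpep 7 and that of Tagln2 1. P4ha2, which was higher in the knockdown, held 4, so the presence of the letters did not separate these genes by direction. Over all genes with a listed promoter, 378 of 482 genes called lower held at least 1 match (78.4%), against 147 of 230 called higher (63.9%) and 5155 of 7484 tested (68.9%). Of the 74 lower genes with a change of at least 2-fold and a listed promoter 79.7% held one. The median GC content of these promoters was 62.0% for lower, 61.3% for higher and 61.3% for all tested genes. Letters of an AP-2-type element, GCCNNNGGC, stood in 29.3% of the promoters of lower genes, in 27.0% of those of higher genes and in 25.7% of all tested. This order of lower and higher genes turned when any 1 of the 4 libraries was left out: leaving out control replicate 1 gave 30.3% and 35.7%, and leaving out control replicate 2 gave 28.6% and 39.7%. The shares became 27.6% and 29.3% when knockdown replicate 1 was dropped and 31.5% and 46.2% when knockdown replicate 2 was. For CCNCNCCC the lower genes kept the higher share in these fits, while the share of the higher genes was 71.8% without knockdown replicate 2, above that of all tested genes. Among all 27025 promoters in the table the shares were 49.1% for CCNCNCCC and 16.5% for GCCNNNGGC. A match describes letters and not binding, and no share was given a test.

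Polr2d (chromosome 18, 31789159 to 31796701), a subunit of RNA polymerase II that pairs with another to form its stalk, had the largest stable fall after Klf5, Actn1 and Lasp1 among genes with a higher group mean of at least 10 linear units. It stood at 6.02 and 6.0 in control and at 4.41 and 4.09 in the knockdown (log2 fold change -1.76, SE 0.14, adjusted p = 0.00027). The other subunits did not follow: of 27 tested genes of the RNA polymerases 1 was lower and 0 higher, with a median log2 fold change of -0.02. Polr2a, the largest subunit, differed by -0.21 (adjusted p = 0.36).

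Genes of the cell surface and secretion were among the other large falls. Anpep (chromosome 7, 79821803 to 79861059), a membrane aminopeptidase, fell from 5.12 and 5.31 to 3.84 and 3.52. Hapln4, a link protein of hyaluronan matrices, went from 3.61 and 3.53 to 2.28 and 1.76, and Rtn4r, the receptor of the neurite inhibitor Nogo, from 3.90 and 3.94 to 2.89 and 2.46. Steap3 (chromosome 1, 120190757 to 120272705), an endosomal ferrireductase of iron uptake, dropped from 6.69 and 6.59 to 5.18 and 5.06, which was 34.2% of its linear control level. In the list of surface and glycan enzymes 5 of 23 tested genes were lower (21.7%), 3 of them stable, and 1 higher (4.35%). Of all tested genes 6.39% were lower and 2.86% higher. The list's other stable member, besides Anpep and Hapln4, was Alpl, the tissue-nonspecific alkaline phosphatase, which fell by 1.25 on the log2 scale (adjusted p = 0.0032).

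Serpinb6a, an intracellular inhibitor of serine proteases, stood at 3.66 and 3.51 in control and at 1.83 and 1.91 in the knockdown, 24.1% of the linear control level. Its gene model overlaps that of Nqo2, a quinone reductase, and close copies lie beside it, so reads may have been divided between them, and these values are uncertain. Both Nqo2 (-0.98, adjusted p = 0.023) and the neighbouring copy Serpinb6c (-1.44, adjusted p = 0.024) were lower too. Both of these calls were lost whichever of the 4 libraries was left out, with adjusted p-values up to 0.14 and 0.15.

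The stable falls named by size held further genes of varied function. Epas1, the hypoxia-inducible factor HIF-2 alpha, went from 4.85 and 4.75 to 3.63 and 3.24 (log2 fold change -1.37, adjusted p = 0.0013). Cabin1, a repressor of calcineurin and MEF2, fell from 4.16 and 4.13 to 2.95 and 2.79, and Pik3c2b, a class II phosphoinositide 3-kinase, from 4.43 and 4.72 to 3.37 and 3.28. Skp2, the F-box protein that targets the cell cycle inhibitor p27 for degradation, stood at 5.55 and 5.65 against 4.30 and 4.42 (log2 fold change -1.24, SE 0.08, adjusted p = 0.00012). Uck2, a uridine-cytidine kinase of pyrimidine salvage, stood at 6.55 and 6.57 against 5.37 and 5.32 (log2 fold change -1.22, SE 0.08, adjusted p = 0.0001). In both genes the replicates lay far closer to each other than the groups did, which the choice of stable genes with separated groups favoured.

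Further stable falls were Ttc39b at -1.28 and Sypl, a synaptophysin-like membrane protein, at -1.21. Abundant genes, with a higher group mean of at least 100 linear units, fell less in log2 terms. Zmiz1, a coregulator of the PIAS family, went from 7.69 and 7.75 to 6.97 and 6.78. Rbm47, an RNA-binding protein, stood at 7.16 and 6.96 against 6.24 and 6.34, and Cyp2s1, a cytochrome P450, at 7.08 and 6.92 against 6.18 and 6.13. In all 3 the groups did not overlap, which the choice of genes required.

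**Figure D2:**
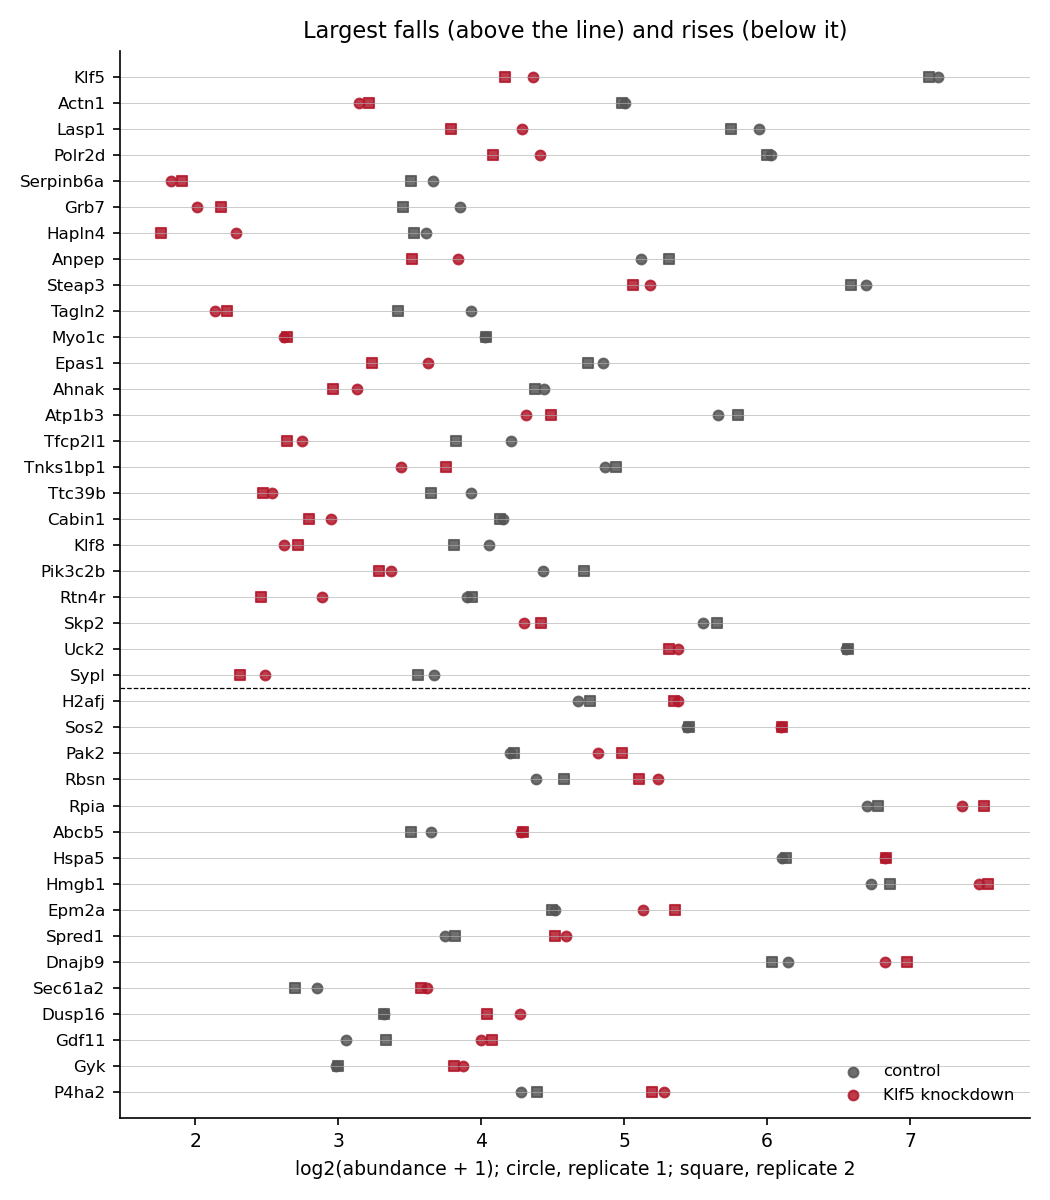
The horizontal axis gives log2(abundance + 1) in each of the 4 libraries for the 24 largest stable falls (above the dashed line) and the 16 largest stable rises (below it), with control in grey, Klf5 knockdown in red, circles for replicate 1 and squares for replicate 2. In every gene shown the 2 control libraries and the 2 knockdown libraries do not overlap, which the choice of genes required.

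The rises were smaller, and P4ha2 led the stable ones named by size. P4ha2 (chromosome 11, 54100095 to 54131665), a collagen prolyl hydroxylase of the endoplasmic reticulum, rose from 4.28 and 4.39 to 5.28 and 5.20 (log2 fold change 0.91, SE 0.10, adjusted p = 0.0013). Hspa5, the main chaperone of the endoplasmic reticulum, rose from 6.10 and 6.13 to 6.82 and 6.83, and Dnajb9, a co-chaperone that works with it, from 6.15 and 6.03 to 6.83 and 6.98. Sec61a2, a form of the channel through which proteins enter this compartment, went from 2.85 and 2.70 to 3.62 and 3.58. In the list of stress response genes and chaperones 6 of 39 tested members were higher and 1 lower, against 2.86% and 6.39% of all tested genes. The stable ones were Hspa5 and Dnajb9 on the higher side and Bag3, a co-chaperone of the heat shock protein Hsp70, on the lower side, at 4.42 and 4.54 in control and 3.42 and 3.21 in the knockdown. The other 4 rises, Hspa1b among them (0.63, adjusted p = 0.038), were each lost without at least 1 library, with adjusted p-values for Hspa1b from 0.10 to 0.19.

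Other stable rises came from metabolism, chromatin and signalling. Gyk, glycerol kinase, stood at 2.98 and 3.00 in control and at 3.87 and 3.81 in the knockdown, and Rpia, ribose 5-phosphate isomerase of the pentose phosphate pathway, at 6.70 and 6.78 against 7.36 and 7.51. Hmgb1, an abundant DNA-bending protein of chromatin, rose from 6.73 and 6.86 to 7.48 and 7.55, H2afj, an H2A histone variant, from 4.68 and 4.76 to 5.38 and 5.34, and Nap1l1, a histone chaperone, from 7.77 and 7.78 to 8.18 and 8.26. Epm2a, the glycogen phosphatase laforin, rose by 0.74 (adjusted p = 0.0037), Abcb5, a transporter of the ABC family, by 0.71 (adjusted p = 0.003) and Rbsn, rabenosyn-5 of early endosomes, by 0.69 (adjusted p = 0.0034). Gclc, the catalytic subunit of the first enzyme of glutathione synthesis, went from 2.17 and 2.32 to 3.17 and 3.07 (log2 fold change 0.87, adjusted p = 0.0037). The list of oxidative stress and glutathione genes had 3 of 22 higher (13.6%), 1 of them stable, and 0 lower. Of all tested genes 2.86% were higher and 6.39% lower.

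Of 16 tested members of the Krüppel-like and Sp family, 3 were lower (Klf5, Klf8 and Klf11) and 2 higher (Klf2 and Klf17), with a median log2 fold change of -0.29. These were 18.8% and 12.5%, against 6.39% and 2.86% of all tested genes. The lower share counts Klf5 itself, the target of the knockdown, so part of it was set by the design. Klf8, a transcriptional repressor on the X chromosome, fell from 4.06 and 3.81 to 2.62 and 2.72 (log2 fold change -1.26, SE 0.13, adjusted p = 0.0011). Klf11, a repressor that recruits Sin3, went from 2.56 and 2.63 to 1.88 and 1.91 (adjusted p = 0.0056). All 3 falls were stable. Klf17, an abundant factor of oocyte and early embryo, stood at 6.54 and 6.79 in control and at 7.20 and 7.18 in the knockdown (0.53, adjusted p = 0.028), a call lost without control replicate 1 (adjusted p = 0.18), knockdown replicate 1 (0.12) and knockdown replicate 2 (0.13). Klf4, a member of the pluripotency network, had 6.19 and 6.16 in control and 6.21 and 6.01 in the knockdown (-0.07, adjusted p = 0.77). Sp1 differed by -0.05 (adjusted p = 0.85), Klf9 by -0.25 (adjusted p = 0.23), Klf3 by -0.29 (adjusted p = 0.26) and Klf10 by -0.55 (adjusted p = 0.17).

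Among factors of the trophectoderm 3 of 14 tested genes were lower (21.4%) and 0 higher, against 6.39% and 2.86% of all tested genes. Their median log2 fold change was -0.19 against -0.02 over all tested genes. Hand1 (chromosome 11, 57828705 to 57832818), a basic helix-loop-helix factor of trophoblast giant cells, stood at 6.74 and 6.70 in control and at 6.04 and 5.94 in the knockdown (log2 fold change -0.72, SE 0.09, adjusted p = 0.0022), and was stable. Cdx2, a homeobox factor needed for trophectoderm, went from 2.35 and 2.48 to 1.15 and 1.23 (adjusted p = 0.014). Tead4, the DNA-binding partner of the Hippo effector Yap1, went from 6.53 and 6.46 to 6.16 and 6.04 (adjusted p = 0.022). The calls of Cdx2 and Tead4 were lost whichever of the 4 libraries was left out (adjusted p from 0.068 to 0.086 and from 0.060 to 0.15). Gata3, another trophectoderm factor, was at 2.19 and 2.16 in control and at 2.17 and 2.22 in the knockdown, and Tfap2c at 6.61 in both control libraries and at 6.51 and 6.57 in the knockdown, with adjusted p-values of 0.95 and 0.69.

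In the Hippo list 4 of 25 were lower and 2 higher, none of them stable, and Yap1 differed by 0.05 (adjusted p = 0.90). Vgll4, which competes with Yap1 for Tead factors, was lower by -0.92 (adjusted p = 0.012). The angiomotin family, which holds Yap1 at junctions, moved in both directions: Amotl1 went from 1.88 and 1.34 to 2.68 and 2.64 (adjusted p = 0.0074) and Amotl2 from 5.69 and 5.56 to 5.0 and 4.83 (adjusted p = 0.030). Amotl1 lost its call without knockdown replicate 2 (adjusted p = 0.052), Vgll4 without all libraries but knockdown replicate 1 (adjusted p from 0.062 to 0.089 in those 3 fits), and Amotl2 without each library (0.083 to 0.17).

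Keratins and desmosomal genes, the intermediate filament system of epithelia, had 4 of 7 tested members lower and 1 higher. These were 57.1% and 14.3%, against 6.39% and 2.86% of all tested genes. Plec, plectin, which ties intermediate filaments to the membrane, was stable and went from 5.35 and 5.45 to 4.39 and 4.17 (log2 fold change -1.12, SE 0.10, adjusted p = 0.00061). Krt8 (chromosome 15, 101996698 to 102004482), with Krt18 the first keratin pair of the embryo, stood at 3.19 and 2.76 in control and at 1.66 and 1.41 in the knockdown. Krt18 stood at 2.89 and 2.62 against 2.05 and 2.04. Both pairs of libraries were apart, but Krt8 lost its call without control replicate 1 (adjusted p = 0.055) and knockdown replicate 2 (0.056). Krt18 lost it without control replicate 1 (0.13), knockdown replicate 1 (0.082) and knockdown replicate 2 (0.099). Perp, a tetraspan protein of desmosomes, was lower by -1.02, a call lost whichever library was left out (adjusted p up to 0.11).

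Junction genes included 5 lower and 1 higher of 20 tested, and polarity genes 3 lower and 0 higher of 20. Cdh1 (chromosome 8, 106603351 to 106670246), E-cadherin, the adhesion molecule of compaction, fell from 6.31 and 6.27 to 5.82 and 5.67 (log2 fold change -0.54, SE 0.08, adjusted p = 0.0044). Pard6b (chromosome 2, 168081004 to 168101203), a scaffold of the apical PAR complex, fell from 2.72 and 2.51 to 1.54 and 1.63, 39.1% of its linear control level. These were the stable members of the 2 lists. The tight junction genes Cldn4 and Cgn were lower at -0.86 and -0.52, and Ctnnb1, beta-catenin, which binds the tail of E-cadherin, was higher at 0.35. Cldn4 and Ctnnb1 lost their calls without each library (adjusted p up to 0.096 and 0.22) and Cgn without control replicate 1 (0.057) and knockdown replicate 2 (0.056). The median of the polarity list was -0.01, and Cdc42, a GTPase that works with the PAR complex, differed by -0.10 (adjusted p = 0.55).

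The list of actin and its crosslinkers had 14 of 46 tested members lower (30.4%), 7 of them stable, and 1 higher (2.17%). Its median log2 fold change was -0.25, with 36 of 46 below 0, and its summed linear level went from 2235 and 2308 units in control to 1853 and 1793 in the knockdown. Besides Actn1, Lasp1 and Tagln2 the stable falls included Flna, filamin A, which crosslinks actin at the cortex, from 3.22 and 3.42 to 2.58 and 2.43 (adjusted p = 0.0038). Of 24 tested genes of the Arp2/3 complex and filament nucleation 3 were lower (12.5%) and 0 higher, with a median of -0.15. Of all tested genes 6.39% were lower and 2.86% higher. Arpc5, a subunit of the Arp2/3 complex, was the stable one, with 3.90 and 3.85 in control and 3.14 in both knockdown libraries (log2 fold change -0.73, adjusted p = 0.0049). Arpc4 was lower by -0.50 (adjusted p = 0.020, and 0.052 to 0.13 without 1 library), and Arpc1b differed by -0.35 (adjusted p = 0.089).

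Cdc42ep4, one of the effectors through which Cdc42 acts on septins and actin, fell from 3.30 and 3.39 to 2.16 and 2.07 (log2 fold change -1.23, SE 0.12, adjusted p = 0.00068). Pak2, a kinase activated by Cdc42 and Rac1, rose from 4.20 and 4.23 to 4.82 and 4.98 (adjusted p = 0.0034). Matrix receptors had 5 of 18 lower (27.8%, against 6.39% of all tested genes) and 0 higher. Among the lower ones was the stable Fermt2, kindlin-2, an activator of integrins, which fell from 5.60 and 5.62 to 4.83 and 4.68 (adjusted p = 0.00078).

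Receptor kinase signalling showed changes at several steps. Erbb2 (chromosome 11, 98412470 to 98437716), a receptor of the EGF receptor family, stood at 2.53 and 2.46 in control and at 0.82 and 0.91 in the knockdown, 17.7% of the linear control level (log2 fold change -1.63, SE 0.14, adjusted p = 0.00051). Grb7 (chromosome 11, 98446394 to 98455373), an adaptor that binds ErbB receptors, went from 3.85 and 3.45 to 2.01 and 2.18. The 2 genes lie on either side of Mien1, which stood at 2.16 and 1.91 in control and at 1.72 and 1.68 in the knockdown (-0.34, adjusted p = 0.24). In the Ras pathway Sos2, an exchange factor that activates Ras, rose from 5.44 and 5.46 to 6.10 and 6.11, and Spred1, an inhibitor of the step from Ras to Raf, from 3.75 and 3.82 to 4.60 and 4.51. The MAP kinase phosphatases were divided, with Dusp14 at 4.53 and 4.60 against 3.60 and 3.88 and Dusp16 at 3.32 in both control libraries against 4.27 and 4.04. These 6 genes were all stable. Over the list of FGF, ErbB and MAP kinase genes 5 of 42 were lower (11.9%) and 3 higher (7.14%), with a median of -0.06. Of all tested genes 6.39% were lower and 2.86% higher. Fgf4, the ligand that inner cells secrete, differed by -0.29 (adjusted p = 0.31), and Fgfr2, its receptor in the trophectoderm, by 0.02 (adjusted p = 0.96).

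**Figure D3:**
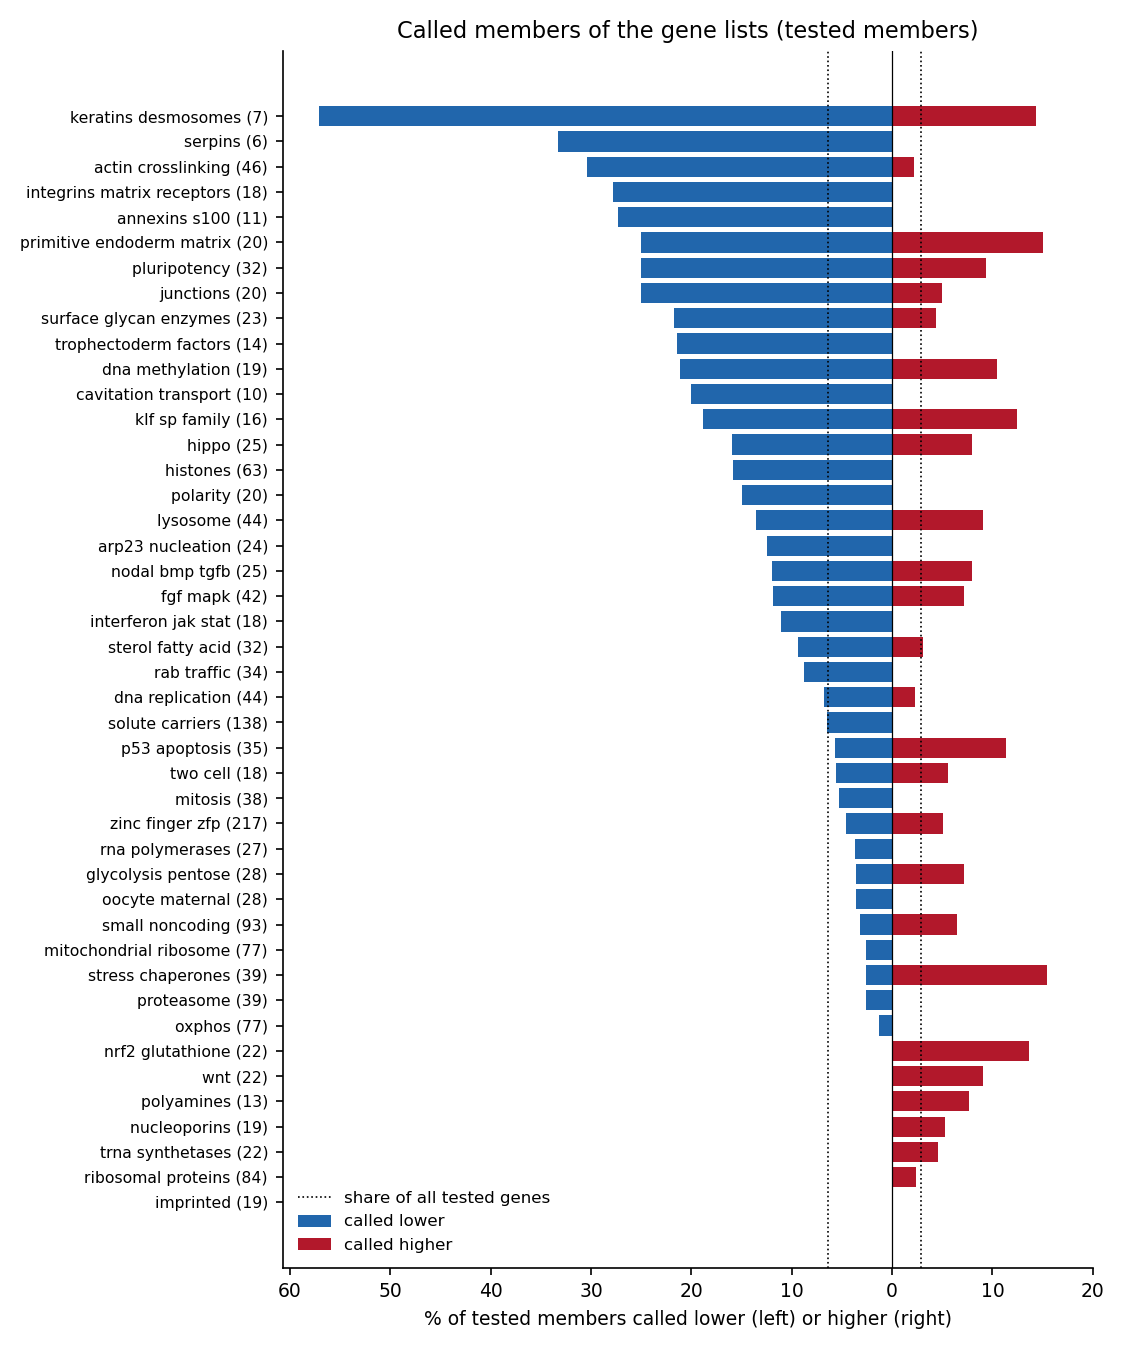
Bars give the percentage of tested members of each gene list called lower (left) or higher (right) in the Klf5 knockdown, for the lists shown, each with at least 5 tested members, whose number stands in brackets. Dotted lines mark the shares of all 10029 tested genes, 6.39% lower and 2.86% higher. Keratins and desmosomes (4 of 7 lower) and actin and its crosslinkers (14 of 46 lower) stand near the top, and the lists at the bottom have no lower member.

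Pluripotency and inner cell mass genes had 8 of 32 tested members lower (25.0%) and 3 higher (9.38%), against 6.39% and 2.86% of all tested genes. Their median was -0.14. Tfcp2l1 (chromosome 1, 118627945 to 118685168), a factor of naive pluripotency, fell from 4.21 and 3.82 to 2.75 and 2.64, 35.7% of its linear control level. Tdgf1 (chromosome 9, 110939603 to 110946158), the Nodal co-receptor Cripto, fell from 5.95 and 5.73 to 4.87 and 4.96. Nanog, a homeobox factor of the epiblast, stood at 3.95 and 3.45 against 3.02 and 2.67 (-0.85, adjusted p = 0.043), but lost the call without each library (adjusted p from 0.055 to 0.24). The core factor Pou5f1 had 6.48 and 6.50 in control and 6.22 and 6.34 in the knockdown (-0.21, adjusted p = 0.23). Values for Esrrb (-0.11, adjusted p = 0.93), Sall4 (-0.21, adjusted p = 0.12), Zfp42 (-0.28, adjusted p = 0.18) and Dppa3 (0.08, adjusted p = 0.77) did not pass either. Tfcp2l1 and Tdgf1 were stable.

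Genes of primitive endoderm and basement membrane went both ways, with 5 of 20 lower and 3 higher. Nid1, nidogen-1, which links laminin and collagen IV, fell from 6.44 and 6.40 to 5.61 and 5.66 (log2 fold change -0.79, SE 0.11, adjusted p = 0.0031), while P4ha2 rose. These were the list's stable changes, and its summed level was 1038 and 1029 units in control and 1036 and 1027 in the knockdown. Gata6, the factor that specifies primitive endoderm, stood at 6.87 and 6.82 against 6.99 and 7.06 (0.18, adjusted p = 0.30). Among Nodal, BMP and TGF-beta genes 3 of 25 were lower and 2 higher: with Tdgf1 the stable one was Gdf11, a ligand of the family, which rose from 3.05 and 3.34 to 4.0 and 4.08 (adjusted p = 0.0046). Among Wnt genes 0 of 22 were lower and 2 higher, of which the receptor Fzd5 was stable, rising from 1.20 and 1.31 to 2.29 and 2.09 (adjusted p = 0.0040).

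Transport genes that serve the later filling of the blastocyst cavity had 2 of 10 tested members lower (20.0%) and 0 higher. Both falls were stable. Aqp3 (chromosome 4, 41092722 to 41098183), a channel for water and glycerol, went from 6.82 and 6.70 to 5.74 and 5.49, 44.8% of the linear control level (log2 fold change -1.15, SE 0.10, adjusted p = 0.00047). Atp1b3 (chromosome 9, 96332655 to 96364442), a beta subunit of the sodium pump, went from 5.66 and 5.79 to 4.31 and 4.49 (log2 fold change -1.33, SE 0.10, adjusted p = 0.00030). Of 138 tested solute carriers 9 were lower and 0 higher, a lower share of 6.52% against 6.39% of all tested genes. Slc28a3, a nucleoside importer, was the stable one and fell from 2.68 and 2.50 to 0.89 and 1.02 (adjusted p = 0.0011).

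The replication-dependent histone genes were lower in 10 of 63 tested cases (15.9%, against 6.39% of all tested genes) and higher in 0. Split by type, a split made after their values were seen, 8 of 16 H2B genes were lower, against 2 of 18 H2A, 0 of 11 H3, 0 of 12 H4 and 0 of 6 H1 genes. The median log2 fold change was -0.54 for H2B, -0.07 for H2A, -0.16 for H3, -0.08 for H4 and -0.05 for H1. The H2B genes together summed to 1201 and 1306 linear units in control and to 813 and 808 in the knockdown, while those of H1 summed to 1694 and 1650 against 1685 and 1698. Of the 16 H2B genes 13 were lower in both knockdown libraries than in both control libraries, as were 30.7% of all tested genes. Hist1h2bm went from 6.91 and 6.94 to 6.10 and 6.21 (log2 fold change -0.77, SE 0.09, adjusted p = 0.0013) and Hist1h2bk from 7.05 and 7.25 to 6.34 and 6.45 (adjusted p = 0.0040). These and Hist1h2bc were the stable ones. Hist1h2be lost its call without control replicate 2 (adjusted p = 0.078) and knockdown replicate 2 (0.085). H2B genes are near-identical copies, between which reads may have been divided, so the summed level is firmer than that of 1 gene, and the difference between histone types was not tested.

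**Figure D4:**
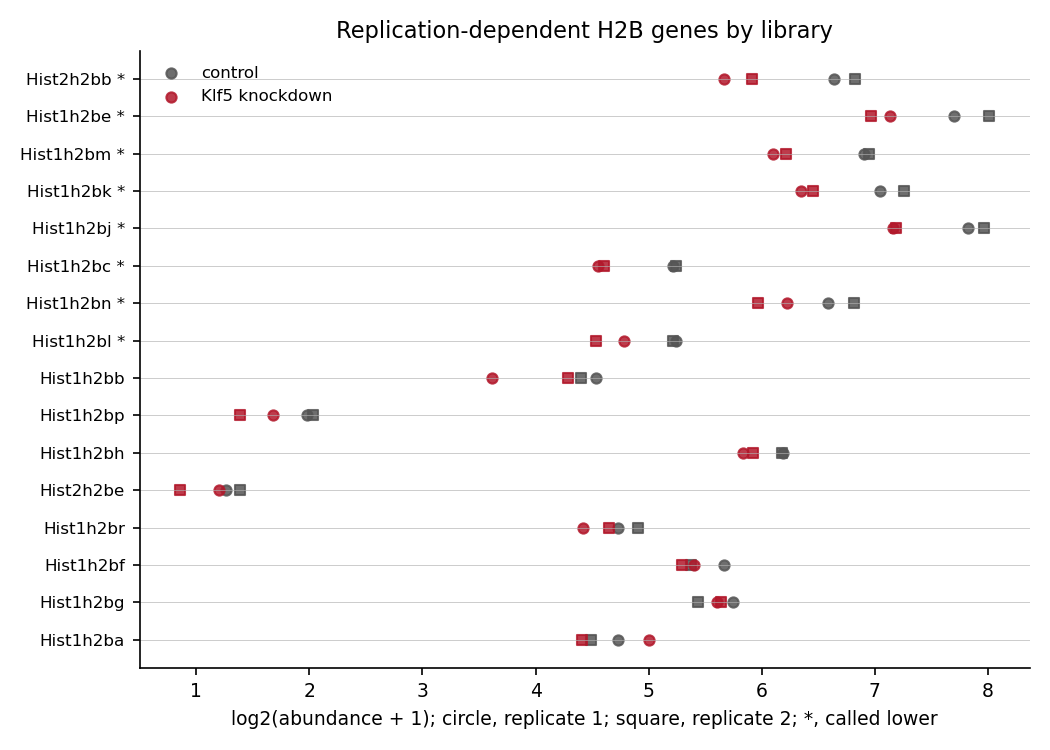
The horizontal axis gives log2(abundance + 1) of the 16 tested H2B genes in each of the 4 libraries, with control in grey, Klf5 knockdown in red, circles for replicate 1, squares for replicate 2 and a star beside the 8 genes called lower. The knockdown points lie left of the control points in 13 of the 16 genes.

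Several other groups had shares of called genes close to the background or below it. Ribosomal proteins of the cytosol had 0 of 84 lower and 2 higher, Rpl19 (0.67, adjusted p = 0.013) and Rpl14 (0.24, adjusted p = 0.041), both lost without single libraries. As a set they leaned higher, with a median of 0.17 and 14 of 84 below 0, against -0.02 and 5302 of 10029 over all tested genes. Their summed level was 31310 and 30740 linear units in control and 33570 and 35530 in the knockdown, a shift that was not tested. Of 77 mitochondrial ribosomal proteins 2 were lower, of 77 oxidative phosphorylation genes 1 was lower, and of 39 proteasome genes 1 was lower. Oocyte-inherited transcripts had 1 of 28 lower, 2-cell-stage transcripts 1 lower and 1 higher of 18, and imprinted genes 0 of 19 either way. The imprinted genes had a median of 0.04, but summed to 1123 and 1154 linear units in control and to 920 and 932 in the knockdown. Mitosis genes had 2 of 38 lower. The stable one was Cenpa, the histone H3 variant of centromeres, which fell from 4.86 and 4.64 to 3.77 and 3.88 (log2 fold change -0.92, adjusted p = 0.0015). DNA replication genes had 3 of 44 lower and 1 higher, and sterol and fatty acid genes 3 of 32 lower and 1 higher, none stable.

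The list of DNA methylation genes, which also held the corepressor gene Rcor1, had 4 of 19 lower (21.1%) and 2 higher (10.5%). Of all tested genes 6.39% were lower and 2.86% higher. The list's median was 0.05, with 7 of 19 below 0. Rcor1, the CoREST corepressor, fell from 4.13 in both control libraries to 3.52 and 3.37 (adjusted p = 0.0044), and was the stable one. Dnmt3b, a de novo DNA methyltransferase, stood at 3.44 and 3.49 against 2.77 and 2.70 (adjusted p = 0.0099), with the call lost without control replicate 1 (0.057), control replicate 2 (0.066) and knockdown replicate 2 (0.074). Lysosomal genes had 6 of 44 lower (13.6%) and 4 higher (9.09%). Scarb2, a lysosomal membrane protein, fell from 3.56 and 3.66 to 2.90 and 2.65 (adjusted p = 0.0037), whereas the protease Ctsl rose from 8.45 and 8.61 to 9.06 and 9.05 (adjusted p = 0.0048), a call that missed the threshold without control replicate 1 (adjusted p = 0.051). Of 34 Rab genes 3 were lower (8.82%, close to the 6.39% of all tested genes) and 0 higher. Rab27a, a GTPase of secretory vesicles, stood at 4.92 and 5.08 against 4.06 and 4.03 (adjusted p = 0.0014).

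The Tfap2c knockdown of the same series shows where the Klf5 knockdown differed from the loss of another factor of this stage. The 2 knockdowns were compared with each other directly, by a contrast that takes no control value. The control and motif knockout libraries still entered the fit's estimate of the spread. Of 10029 genes 2800 differed (27.9%), 1614 lower (16.1%) and 1186 higher (11.8%) with Klf5 knockdown. The number was 1794 and 1831 without Klf5 knockdown replicate 1 and 2, and 1649 and 1714 without Tfap2c knockdown replicate 1 and 2. Among the 641 genes lower in the Klf5 knockdown 304 were lower there than in the Tfap2c knockdown too, 85 were lower in the Tfap2c knockdown, and 252 did not pass between the 2. Among the 287 higher genes these counts were 114, 25 and 148. The 2 contrasts behind each of these counts share the Klf5 knockdown libraries and are not independent.

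Several falls were larger with Klf5 knockdown in the direct test. Polr2d differed by -1.69 (adjusted p = 2.7e-05), with log2 fold changes against the shared control of -1.76 in the Klf5 and -0.07 in the Tfap2c knockdown. Atp1b3 had -1.33 and 0.08 (direct adjusted p = 1.7e-05), Uck2 -1.22 and -0.04 (8.6e-06), Cabin1 -1.27 and -0.03 (8.5e-05) and Hand1 -0.72 and 0.22 (9.9e-05). Actn1 fell in both, by 1.82 and 1.02, and the direct difference was -0.80 (adjusted p = 0.00017). Erbb2 had -1.63 and -0.65 (direct adjusted p = 0.0010).

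Other genes fell in the Klf5 knockdown but further in the Tfap2c knockdown. Aqp3 had log2 fold changes of -1.15 and -3.21 (direct difference 2.07, adjusted p = 1.8e-06), Lasp1 -1.81 and -3.01 (adjusted p = 0.00070), Tagln2 -1.49 and -2.67 (0.00078), Grb7 -1.56 and -2.61 (0.0022), Tdgf1 -0.92 and -2.82 (3.2e-06) and Tfcp2l1 -1.32 and -2.02 (0.0078). The difference of Tfcp2l1 missed the threshold without Klf5 knockdown replicate 1 (adjusted p = 0.054) and without Tfap2c knockdown replicate 1 (0.061). Klf5 itself was lower in the Tfap2c knockdown, at 5.38 ± 0.09 log2 units (SD, n = 2) against 7.16 ± 0.04 in control. Steap3 had -1.52 and -1.54, a difference of 0.02 (adjusted p = 0.91), and Ahnak -1.35 and -1.40 (adjusted p = 0.89).

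Some genes were called in opposite directions. Bag3 had -1.16 in the Klf5 and 0.74 in the Tfap2c knockdown (direct adjusted p = 2.4e-06), Lmod1, leiomodin-1, an actin nucleator of smooth muscle, -1.0 and 1.11 (1.4e-05), and Chst3, a chondroitin sulfotransferase, -1.16 and 0.60 (0.00012). Nkx6-2, a homeobox factor of the nervous system, had 1.42 and -0.67 (7.5e-05) and stood at 1.23 and 1.32 in control and at 2.83 and 2.55 in the Klf5 knockdown. Spred1 had 0.77 and -1.26 (4.8e-06). In total 44 of the 641 genes lower in the Klf5 knockdown were called higher in the Tfap2c knockdown, and 22 of the 287 higher genes showed the reverse. More were called in the same direction, 290 of the lower and 130 of the higher genes. The remaining 307 and 135 were not called in the Tfap2c knockdown. None of these counts was set against the share of all tested genes called in the Tfap2c knockdown, so they show no excess or lack. The genes named here were stable in the Klf5 knockdown against control, while most of the genes with opposite calls were not. Their calls in the Tfap2c knockdown were not examined in this way. For the named genes these had limma adjusted p-values from 7.3e-05 (Spred1) to 0.033 (Chst3). Both contrasts share the control libraries and are not independent.

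**Figure D5:**
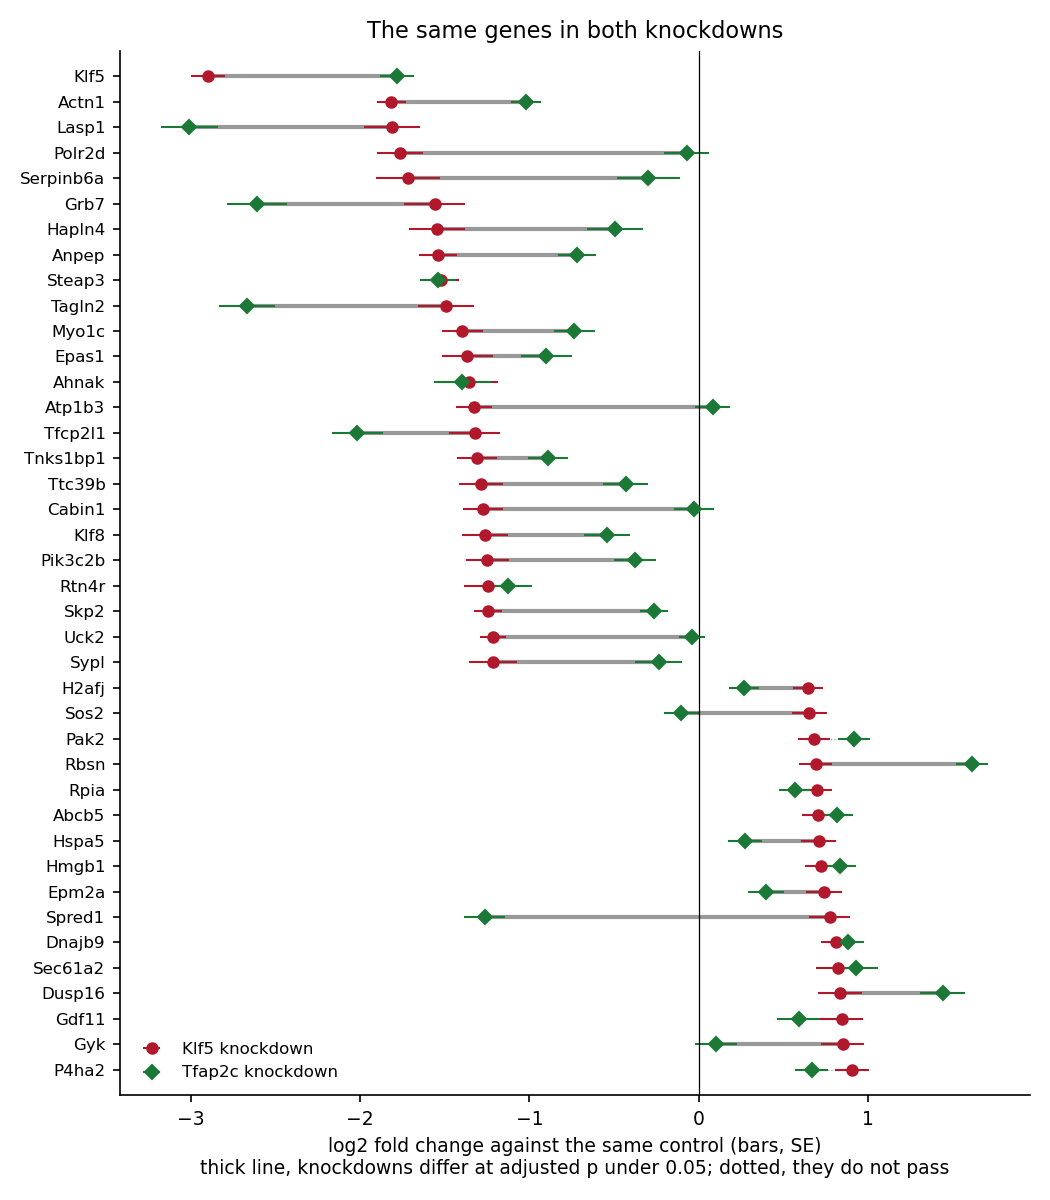
The horizontal axis gives the log2 fold change against the same control libraries, with bars for the standard error, for the 24 largest stable falls and 16 largest stable rises of the Klf5 knockdown (red circles) and for the same genes in the Tfap2c knockdown (green diamonds). Thick lines join values that differed directly at an adjusted p under 0.05. Polr2d, Atp1b3, Uck2 and Cabin1 lie near 0 in the Tfap2c knockdown, while Lasp1, Grb7, Tagln2 and Tfcp2l1 lie further left there.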

How the data were processed

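Total RNA of 8-cell embryos was sequenced. The submitters' processing notes name the mm10 build and, with no order given, Cufflinks, StringTie 1.3.4, SAMtools 1.7 and HISAT2 2.1.0. The deposited values are log2 abundances, 1 per gene and library, made by adding 1 to an abundance whose kind is not given in the sources used here; the constant was read from the exact zeros. Genes were joined by symbol over the 3 tables. Those that reached 1 linear unit in at least 2 of the 4 control and Klf5 knockdown libraries were fitted with limma 3.58.1 in R 4.3.3 (empirical Bayes with trend) over all 10 libraries in 5 groups, with 5 residual degrees of freedom, and p-values were adjusted by Benjamini-Hochberg over 10029 genes. A gene was called at an adjusted p under 0.05. Fold changes are on the log2(abundance + 1) scale, which understates changes of low genes.

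The members, 48 gene lists and tests were chosen with earlier results of these data known. Genes were named as Klf5; the 24 largest falls and 16 largest rises among stable genes with separated groups and a higher mean of at least 10 linear units; 6 each way at 100 units or more; up to 4 called members per list; and 5 each way between the knockdowns. Unnamed gene models were left out. List members without a call are named with their values only. Adgrg1, Jdp2, Mien1 and Nqo2 were chosen after their values were seen. Some genes and lists this rule names are not reported here. On simulated data with 200 changed genes the fit for this comparison recovered 82.5% at a log2 change of 1 and 98.0% at 2, over 10029 genes, with 5.17% and 4.85% of calls false. The simulation drew independent normal noise, with as many rises as falls and no offset between tables. Most calls reported here were smaller than 2-fold and compare separate tables, so these rates may not hold for them. Positions are from GENCODE M21, where 9641 tested symbols had 1 position. Promoters are from RefSeq (GRCm38.p6), the first listed for each of 7484 matched symbols. Alternatives were the filter, added constant, scaling, variance prior, libraries fitted, replicate block and each library left out.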

Additional observations from a re-analysis of the deposited data

How the results depend on the processing

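Without the filter on low values 539 genes were called, 394 lower and 145 higher. The number called higher was 456 with the 6 control and knockdown libraries and 449 with libraries centred on their medians. The 116 genes with a change of at least 2-fold became 67 with a filter at 5 linear units, 211 with a constant of 0.1 and 16 with a constant of 5. Without 1 library the calls ranged from 249 to 371, those lower from 200 to 293, those higher from 49 to 78, the 2-fold calls from 89 to 118 and the calls between the knockdowns from 1649 to 1831. Fewer libraries leave fewer degrees of freedom; other causes were not tested. The share of lower genes with CCNCNCCC was 82.2% with median centring and 79.2% to 82.9% without 1 library. The share of higher genes with it was then 63.8% to 71.8%. For GCCNNNGGC the shares without 1 library were 27.6% to 31.5% (lower) and 29.3% to 46.2% (higher). When any listed promoter counted, a choice made after seeing the data, 34.0% of lower genes held GCCNNNGGC. The share with GCCNNNGGC was larger among lower than among higher genes as reported, but smaller with only the 2 groups compared (28.1% and 28.3%), without the filter (25.9% and 30.5%), with a constant of 5 (28.7% and 29.1%), without the trend (26.5% and 27.5%) and without each library. No called change of a named gene turned its sign in these fits.

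With the replicate number as a block 733 genes were called. Same-numbered control and Klf5 knockdown libraries did not deviate together (r = -0.01 across genes, which are not independent replicates), so the samples share only a number. Without the filter 59 of the 167 named genes with a call lost it, and 78 of the 167 kept it without each library. Depth is unknown, and with 2 libraries a group small changes may go undetected.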

Other observations

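Genes called in the same direction lay side by side in several places. Of 9620 pairs of neighbouring tested genes, 59 were both lower and 10 both higher in the Klf5 knockdown, counts that were not set against any expectation. The keratin genes Krt8 and Krt18 on chromosome 15 were such a pair, and so were S100a11 (-1.32) and S100a10 (-0.95) on chromosome 3, which encode small calcium-binding proteins. S100a11 lost its call without control replicate 1 (adjusted p = 0.14) and knockdown replicate 2 (0.15), and S100a10 without control replicate 1 (0.12), knockdown replicate 1 (0.083) and knockdown replicate 2 (0.096). Jdp2, an AP-1 repressor, stood at 2.22 and 2.18 in control and at 0.72 and 1.00 in the knockdown (log2 fold change -1.34, limma adjusted p = 0.0019), next to Tmed10, a carrier of secretory cargo (-0.82). Adgrg1, an adhesion G protein-coupled receptor, fell from 1.80 and 1.77 to 0.84 and 0.69 (adjusted p = 0.0030).

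Zinc finger genes named Zfp were called on both sides, 10 lower (4.61%) and 11 higher (5.07%) of 217 tested, with a median of 0.02. Over all tested genes the shares were 6.39% and 2.86%. Zfp612 was the stable one and fell from 1.91 and 1.93 to 0.86 and 0.95 (adjusted p = 0.0026). Zfp651 went from 1.03 and 1.12 to 2.58 and 2.61 (adjusted p = 0.022), but lost the call without each library (adjusted p up to 0.12). Of 93 small noncoding RNA genes 6 were higher (6.45%) and 3 lower (3.23%), none stable. Snord15a, a box C/D small nucleolar RNA in a host gene intron, stood at 6.23 and 5.73 in control and at 6.75 and 7.0 in the knockdown (adjusted p = 0.044, and 0.063 to 0.24 without 1 library).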
